A study of Arabidopsis thaliana with 9 samples.

Results

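Transcript levels were compared between the csld5 mutant and the wild type col-0 of Arabidopsis thaliana, in dissected inflorescence meristems, with 3 RNA-seq libraries of each genotype and all genes of the deposited count table. The table lists 25760 genes, of which 22671 had enough reads to be tested. The csld5 plants carry a mutation in CSLD5 whose allele is not given in the labels, and the col-0 plants are the wild type of that accession. Another genotype, pATML1::GFP+CSLD5-csld5, carries the same mutation and a transgene that expresses CSLD5 from the promoter of the epidermal regulator ATML1. Its 3 libraries, called complemented here, entered the fit to share 1 estimate of the spread, and their levels are given where they bear on a result. The labels do not give plant age, nor whether each library of a genotype is from other plants, and the p-values rest on the spread among libraries, which may be technical. In whole tissue, fewer cells of a type and less RNA per cell cannot be told apart.

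CSLD5 belongs to the cellulose synthase-like D family, whose members make wall polysaccharide, and its protein is known from dividing cells, where it takes part in building the cell plate that separates daughter cells. The inflorescence meristem is the shoot tip that produces flowers. Its stem cells are kept by the homeodomain protein WUS, made in the cells beneath them, and by STM, which holds cells in an undifferentiated state, while organs arise on the flanks and begin to form wall, vascular tissue and pollen. The series addresses how wall remodelling through CSLD5 bears on stem cell activity.

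Depth was even, from 35543318 to 45679471 counts per library over all 9, and differences are log2 fold changes, csld5 minus col-0, with standard errors. Levels are library-scaled counts (CPM, counts divided by the library's effective total) after TMM scaling, which sets the libraries' bulk of genes equal. A smooth curve of exon GC content and length described the deviation of the csld5 libraries from the mean of all libraries with an R² of 0.0918, 0.142 and 0.339, highest in replicate 3, and that of the col-0 libraries with 0.0493, 0.0479 and 0.0254. Each result was also fitted with that curve removed from every library, called the GC and length offset. The col-0 replicate 1 column of the table holds no gene without a read, whereas the csld5 columns hold 1367 to 1540 such genes and the other col-0 columns 1001 and 1342.

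The mutated gene followed the labels. CSLD5 (AT1G02730) had 26.9, 28.1 and 26.8 CPM in the csld5 libraries, against 131, 135 and 126 CPM in the col-0 libraries. The 2 genotypes stood well apart, and the difference was -2.26 ± 0.07 (adjusted p = 2.2e-10 in edgeR's quasi-likelihood fit, with the adjustment of Benjamini and Hochberg). WUS had 29.3, 20.5 and 20.9 CPM in csld5, against 14.1, 13.6 and 19.4 CPM in col-0. Every csld5 library lay above every col-0 library, by a small margin at the nearest pair, and the rise of 0.59 ± 0.16 was called under all 20 alternative settings, with a range from 0.42 to 0.77. Of the 11 tested markers of inflorescence and floral meristems 3 rose and 2 fell (2 and 1 with the offset). Without col-0 replicate 2, 1 rose and 1 fell, without csld5 replicate 1, 4 fell, and without any 1 of the other 4 libraries 0 fell. The summed level of that marker list was 1339, 1116 and 1067 CPM in csld5, against 1277, 1227 and 1327 CPM in col-0, and the 2 ranges overlap. STM differed by 0.18 ± 0.06 and KNAT1, a relative of STM, by 0.16 ± 0.06. AP1, a floral meristem identity gene, differed by -0.28 ± 0.10. These 3 calls were lost in 11, 9 and 9 of the 20 settings. AP1 was no longer called without csld5 replicate 2 (-0.20) or 3 (-0.20), or without col-0 replicate 1 (-0.25) or 3 (-0.25), and KNAT1 without csld5 replicate 3 (0.13) or col-0 replicate 1 (0.18) or 2 (0.12). STM was lost without csld5 replicate 2 (0.17) or col-0 replicate 2 (0.16) or 3 (0.18). The other fall called was that of PI (-0.21 ± 0.08), which held in 10 of the 20 settings and not with the offset. LFY was not called without the offset (-0.41 ± 0.18) but was the single fall called with it (-0.77). UFO, AG, TFL1, SEP3 and AP3 were not called, at -0.38, -0.19, -0.17, -0.13 and -0.06. The median of the list was -0.17, and 0.10 with the offset.

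In all, 41.5% of the tested genes were called, 9417 genes at an adjusted p below 0.05, of which 4790 (21.1%) were higher in csld5 and 4627 (20.4%) lower. The counts of gene lists further on are to be read beside these shares. A difference of at least 1 on the log2 scale was reached by 1536 genes (6.78%), of which 686 were higher (3.03%) and 850 lower (3.75%). In 51% of tested genes the 3 csld5 libraries and the 3 col-0 libraries did not overlap in CPM. Direction followed the size of the transcript. In the quartile of genes with the shortest exons, 7.26% were higher in csld5 and 35.0% lower, and in the quartile with the longest, 34.1% were higher and 9.21% lower. In the quartile with the highest exon GC content 40.1% were higher and 6.04% lower, against 8.20% and 39.5% in the lowest. With the offset, 32.9% of genes were called, 15.5% higher and 17.4% lower, 4.99% with a difference of at least 1 (3.18% higher, 1.81% lower), and each quartile of length or GC content lay between 14.1% and 20.5% in either direction.

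**Figure D1:**
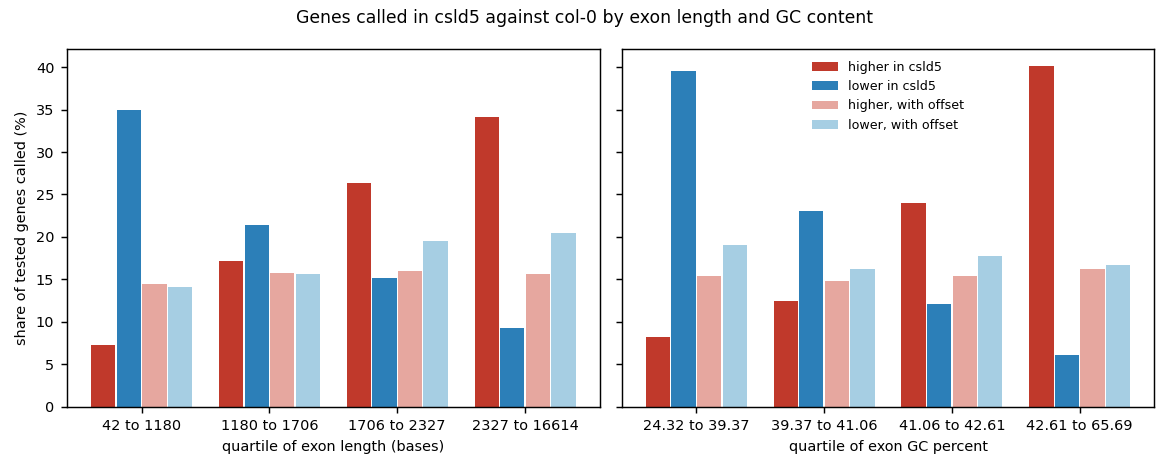
Share of tested genes called higher or lower in csld5 than in col-0 (y axis, percent) in quartiles of exon length (left, bases) and exon GC content (right, percent), without and with the GC and length offset. Without it, calls of lower genes go from 35.0% in the shortest quartile to 9.21% in the longest, and with it the bars are nearly level.

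Large rises kept their call under the offset more often than small ones, whereas the share, as counted here, varied less over falls. Of genes called higher by at least 1 and under 2, 93.3% kept the call and sign, and of those higher by 2 to 4, 98.9% did. Among genes lower by the same amounts the shares were 64.3% and 65.3%, and of differences under 0.25, 23.7% of the rises and 51.1% of the falls kept it. Of falls of 4 or more 56.2% did. Genes of the chloroplast and mitochondrion were not tested with the offset and count here as not kept, which lowers the shares of falls. Among 82 tested chloroplast genes 65 were called lower by at least 1 and 0 higher. In all, 3444 genes kept their call and sign under all 20 settings, 1870 higher and 1574 lower, of which 488 and 341 had a difference of at least 1. A gene that any setting left untested counts as lost here, such as organelle genes with the offset or genes below a filter. Classes of transcripts that do not code for protein differed. Of 454 tested long noncoding RNAs 10 rose and 134 fell, with a median of -0.57, and of 111 small nucleolar RNAs, which guide modification of ribosomal RNA, 0 rose and 44 fell, with a median of -0.70. Of 250 pseudogenes 48 rose and 27 fell, with a median of 0.04. The median over all tested genes was -0.02, and 20.4% of them fell. In the quartile of genes with the shortest exons, of any class, 35% fell and the median was -0.29. The classes were counted without the offset only. The part of exon length or GC content in the falls of noncoding RNAs was not tested.

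The 10 largest rises were taken from called nuclear genes with an average log2 CPM of at least 3 whose csld5 and col-0 libraries did not overlap. They were led by the noncoding AT3G05945, at 4.45 ± 0.21, and by GPAT5. GPAT5, an acyltransferase of suberin synthesis, had 67.8, 59.4 and 62.3 CPM in csld5, against 3.01, 4.08 and 4.38 CPM in col-0, a rise of 4.05 ± 0.32. ABCG6, a transporter that exports suberin precursors, had 21.4, 23.8 and 24.8 CPM in csld5, against 3.38, 2.32 and 3.51 CPM in col-0, and rose by 2.93 ± 0.27. Both genes belong to the suberin pathway, and their lack of overlap follows from the rule of choice. AT3G22910, annotated as an autoinhibited calcium pump (ACA13), had 130, 112 and 99.2 CPM in csld5, against 6.46, 11 and 8.19 CPM in col-0 (3.73 ± 0.32). SWEET13, a sucrose exporter, had 24.4, 21.9 and 15.4 CPM in csld5, against 2.52, 2.54 and 2.58 CPM in col-0 (3.01 ± 0.29). CYP76C3, a cytochrome P450 of floral monoterpene metabolism, rose by 3.38 ± 0.32, and TPS21, a floral sesquiterpene synthase, by 3.01 ± 0.32. AT5G35935, AT3G60780 and AT3G62710 rose by 3.32, 3.15 and 2.97. The complemented means of AT5G35935 and AT3G05945 were 32.7 and 15.5 CPM, against col-0 means of 3.98 and 0.418 CPM. All other genes among these rises had complemented means between those of csld5 and col-0. These were 14.2 CPM for GPAT5, 34.1 for AT3G22910, 7.05 for SWEET13, 5.88 for ABCG6 and 9.73 for CYP76C3. They were 17.3 CPM for TPS21, 5.83 for AT3G60780 and 8.01 for AT3G62710. Complemented libraries spread widely, for GPAT5 at 22.6, 13.1 and 6.89 CPM. All 10 of these rises were called under all 20 settings.

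**Figure D2:**
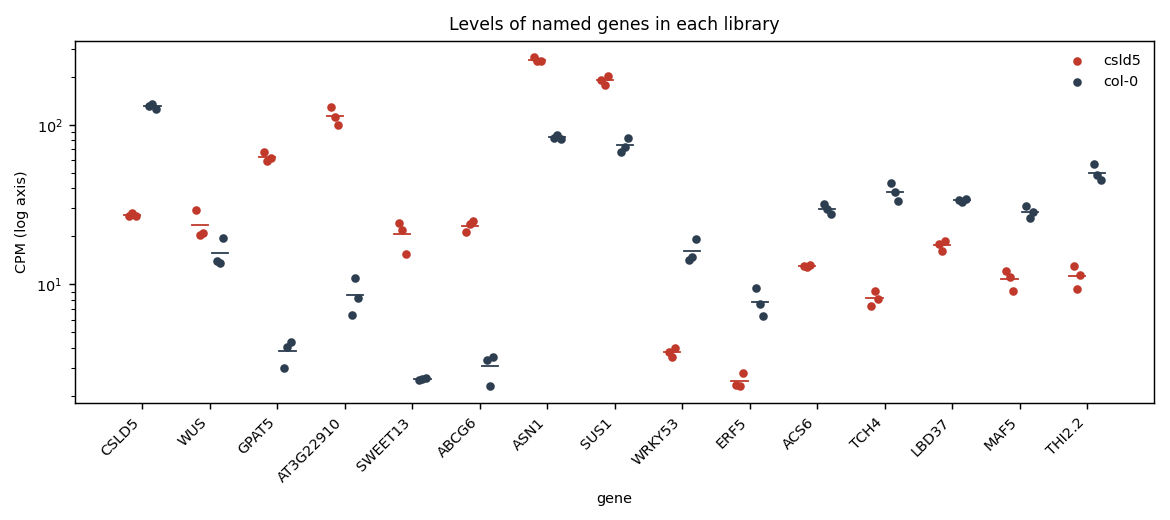
CPM (y axis, log scale) of 15 genes in the 3 csld5 and the 3 col-0 libraries, points for libraries and bars for means. The csld5 libraries of GPAT5 lie at 59.4 to 67.8 CPM and its col-0 libraries at 3.01 to 4.38 CPM, while those of WRKY53, ERF5, ACS6 and TCH4 lie below every col-0 library.

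Among called, non-overlapping nuclear genes with an average log2 CPM of at least 3, the largest falls besides CSLD5 included the following. AT1G49500, annotated as a TFIID subunit-like protein, had 1.89, 1.08 and 1.73 CPM in csld5, against 18.1, 18.7 and 18.1 CPM in col-0 (-3.55 ± 0.17). TCH4, a touch-inducible enzyme that cuts and joins xyloglucan, had 7.35, 9.1 and 8.12 CPM in csld5, against 42.9, 37.7 and 33.1 CPM in col-0 (-2.21 ± 0.23). THI2.2, an antimicrobial thionin, had 13.1, 9.32 and 11.5 CPM in csld5, against 56.7, 48.2 and 45 CPM in col-0 (-2.14 ± 0.17). That none of these genes overlapped between the genotypes follows from the rule of choice. Of the others, the peptide gene RALFL8 fell by 2.06 ± 0.16 (-1.44 with the offset), while the difference was -2.69 ± 0.24 for the uncharacterised AT4G36500 and -1.99 ± 0.22 for the glycine-rich protein gene AT1G07135. AT3G03265, a noncoding RNA, fell by 2.64 ± 0.15 in counts, whereas limma on the deposited TPM gave 0.34 for it, so the deposited tables give it opposite directions.

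A stretch of neighbouring genes on chromosome 1 fell together in csld5, and the stretch was found after the values had been seen. From AT1G64800 to 4CL3 (AT1G65060), all 25 consecutive tested genes were lower by at least 1 on the log2 scale, over 86.6 kb (chr1:24085046-24171635, TAIR10.1). Of these, 23 were called, and 23 were still called with the offset. The median was -1.56, the values ran from -3.25 to -1.24, and the 2 genes not called had few reads. The lowest value was that of the long noncoding RNA AT1G08733, which overlaps G-TMT, so their reads may not be told apart. By the same rule the next longest such runs held 5 genes, 2 in number. CSLD5 itself lies near the other end of the chromosome, at 594502 to 598657.

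Within the stretch, libraries of a genotype lay close together for the genes with many reads. SIGA, a sigma factor of the plastid RNA polymerase, had 48.8, 46.4 and 46.6 CPM in csld5, against 166, 168 and 178 CPM in col-0 (-1.85 ± 0.05). AT1G64880, annotated as a ribosomal protein of the S5 family, had 94.4, 97.1 and 98.4 CPM in csld5, against 351, 346 and 346 CPM in col-0 (-1.85 ± 0.05). These genes were among those with the smallest p of the whole comparison, as 17 of the 50 called nuclear genes with the smallest p lay in the stretch. APO1, needed to assemble photosystem complexes, differed by -1.51 ± 0.07, the tocopherol enzyme G-TMT by -1.41 ± 0.07, the cytochrome P450 gene CYP89A5 by -1.40 ± 0.06, GTG1, annotated as a GPCR-type G protein, by -1.67 ± 0.06, and 4CL3, a ligase of the phenylpropanoid pathway, by -1.44 ± 0.09.

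The genes on both sides of the stretch were these. Beyond 4CL3, AT1G65070 had means of 47.5 CPM in csld5 and 43.6 CPM in col-0 and was not called (0.13 ± 0.06, edgeR adjusted p = 0.092). Before AT1G64800, the long gene ILA, which encodes a regulator of translation, fell by 0.99 ± 0.10 (-1.30 with the offset), with a complemented mean at 34.7% of that of col-0, and its next neighbour AMT1;2, an ammonium transporter, had means of 24.5 CPM in csld5 and 20.3 CPM in col-0. Summed over the 25 genes, the level was 891, 862 and 888 CPM in csld5, against 2611, 2586 and 2743 CPM in col-0. It was 851, 887 and 867 CPM in the complemented libraries, and 24 of the 25 genes lay below every col-0 library there. Among the 19 genes with average log2 CPM of at least 3, csld5 means were 25.3% to 39.4% and complemented means 30.2% to 36.9% of the col-0 mean. Complemented plants carry the csld5 background, so an effect of the lost gene that the transgene left as it was and a feature of the mutant line cannot be told apart.

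**Figure D3:**
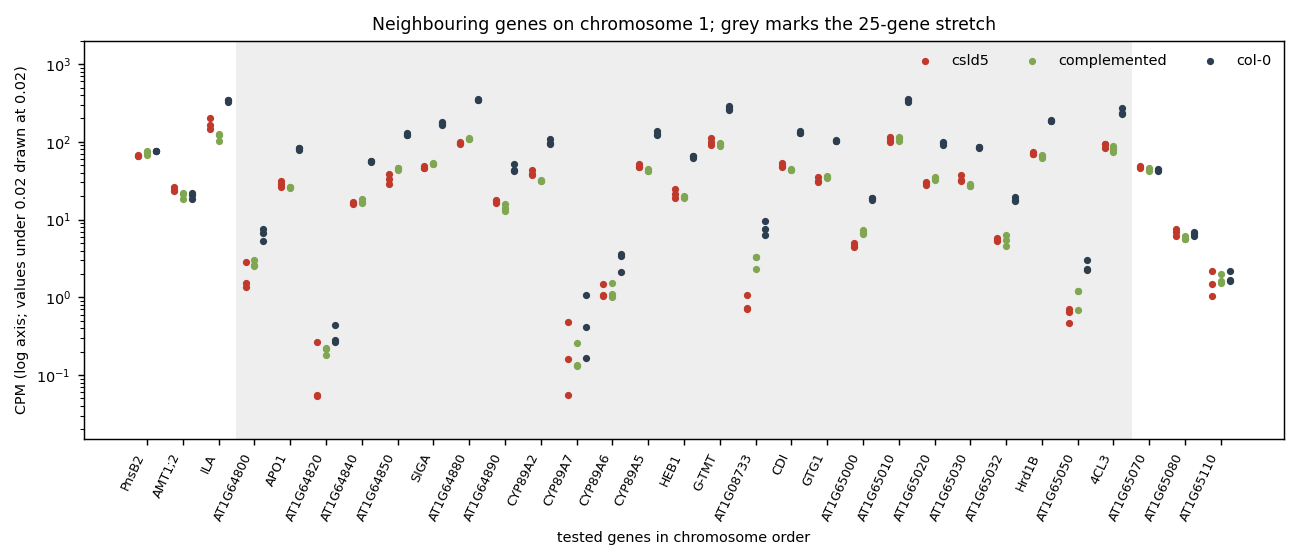
CPM (y axis, log scale) of 31 tested neighbouring genes on chromosome 1, in chromosome order, with points for each csld5, complemented and col-0 library. Inside the grey stretch of 25 genes the csld5 and complemented points lie together at about a common distance below the col-0 points, and the 3 genes after it show no such gap.

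Calls near the mutated gene were about as frequent as over the genome. Among genes within 0.5 Mb of CSLD5 39.0% were called, and among those 0.5 to 2 Mb away 42.7%. Chromosomes 1 to 5 had 40.4%, 41.6%, 42.6%, 40.9% and 41.6%. Among called genes within 2 Mb that had an average log2 CPM of at least 1, AT1G01980 had the largest rise. It is annotated as a berberine bridge enzyme-like protein (3.44 ± 0.34, with 6.82, 10.7 and 11.5 CPM in csld5, against 0.555, 1.02 and 1.12 CPM in col-0). The glycosyltransferase gene AT1G05675 had the largest fall of these called genes (-2.28 ± 0.39).

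Several transcription factors of early stress and ethylene responses were lower in csld5, in families of which most members were not called. Of 55 WRKY genes, whose proteins regulate defence and senescence, 1 rose and 14 fell (0 and 13 with the offset), and of 50 ERF and DREB genes, the factors of ethylene and dehydration responses, 7 rose and 15 fell (4 and 14 with the offset). The falls were 25.5% of the WRKY genes and 30% of the ERF and DREB genes, beside 20.4% of all tested genes. WRKY53 had 3.76, 3.52 and 3.97 CPM in csld5, against 14.2, 14.9 and 19.2 CPM in col-0 (-2.10 ± 0.28). ERF5 had 2.34, 2.3 and 2.78 CPM in csld5, against 9.49, 7.49 and 6.31 CPM in col-0 (-1.65 ± 0.19), and ERF6 4.62, 5.36 and 6.2 CPM in csld5, against 17.2, 16.7 and 17.4 CPM in col-0 (-1.66 ± 0.21). All csld5 libraries of these genes lay below all col-0 libraries. WRKY15, WRKY70 and ERF11 fell by 0.89 ± 0.12, 0.97 ± 0.16 and 2.78 ± 0.35. ACS6, the enzyme that makes the ethylene precursor, had 13.1, 12.8 and 13.3 CPM in csld5, against 32, 29.8 and 27.6 CPM in col-0 (-1.19 ± 0.11). In complemented libraries the mean of ERF5 was 2.48 CPM and of ACS6 14.5 CPM, close to csld5. TCH4 had 9.17, 7.78 and 17.7 CPM there (mean 11.6 CPM) and WRKY53 10.2, 6.33 and 17.2 CPM (mean 11.2 CPM). Replicate 3 was the highest for both. The complemented mean of WRKY70 was 75.9 CPM (73.9 CPM in csld5, 145 CPM in col-0) and of WRKY15 29.6 CPM (13.8 and 25.6 CPM). ERF6 and ERF11 had complemented means of 8 and 3.26 CPM, between their csld5 and col-0 means. The number of WRKY genes that rose was 2 without csld5 replicate 1 or 2 and 0 without csld5 replicate 3 or col-0 replicate 3, and that of ERF and DREB genes 4 without csld5 replicate 2 or col-0 replicate 2 and 3 without col-0 replicate 1.

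The upstream sequences of 4 of these genes are shown because WRKY proteins bind the W-box core TTGAC, here in capitals on either strand (GTCAA on the opposite one). Each is the 250 bases before the RefSeq transcript start in TAIR10.1, read 5′ to 3′ on the gene's own strand, for ERF5 (chr5:19179631-19179880, plus strand), WRKY53 (chr4:12393983-12394232, minus strand), ACS6 (chr4:6863729-6863978, plus strand) and TCH4 (chr5:23308681-23308930, minus strand).
ERF5: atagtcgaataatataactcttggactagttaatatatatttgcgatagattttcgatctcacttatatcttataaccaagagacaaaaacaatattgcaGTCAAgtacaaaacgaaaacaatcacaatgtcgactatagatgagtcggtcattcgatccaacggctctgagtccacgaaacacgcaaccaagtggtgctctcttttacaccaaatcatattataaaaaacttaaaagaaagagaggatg
WRKY53: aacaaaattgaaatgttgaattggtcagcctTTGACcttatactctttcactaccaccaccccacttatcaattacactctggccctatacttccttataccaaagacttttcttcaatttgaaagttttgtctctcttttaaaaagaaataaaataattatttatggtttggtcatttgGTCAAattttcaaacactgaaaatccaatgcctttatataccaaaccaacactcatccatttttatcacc
ACS6: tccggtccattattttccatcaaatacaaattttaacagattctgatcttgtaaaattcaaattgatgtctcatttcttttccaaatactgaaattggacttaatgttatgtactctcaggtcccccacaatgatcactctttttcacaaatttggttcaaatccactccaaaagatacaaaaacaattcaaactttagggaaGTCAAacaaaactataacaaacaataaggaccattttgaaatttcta
TCH4: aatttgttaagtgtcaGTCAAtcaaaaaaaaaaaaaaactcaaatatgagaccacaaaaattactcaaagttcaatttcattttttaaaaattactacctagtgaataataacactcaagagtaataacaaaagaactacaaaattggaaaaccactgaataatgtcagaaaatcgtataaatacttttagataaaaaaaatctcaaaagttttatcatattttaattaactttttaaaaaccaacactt
The core occurred at 2 places in the window of WRKY53 and once in each of the other 3, and 44.1% of all 22579 windows of this length hold it. Over promoter windows of 300 bases, which add the 50 bases after the start, the W-box core was present in 51.2% of genes higher by at least 1 and 52.3% of genes lower by at least 1, against 49.7% of all tested genes. The site II element TGGGCC, common in promoters of genes for translation and cell division, was held by 4.09% and 7.02% of them, against 17.7% of all. The G-box CACGTG was held by 8.91% and 5.36%, against 8.31%. The MSA core AACGG of genes expressed at mitosis was held by 21.8% and 20.4%, against 25.9%, and the GCC box AGCCGCC, bound by ERF proteins, by 0% and 1.15%, against 0.762%. All motifs were searched on both strands, and a match is a description of letters only.

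Genes of nitrogen use moved in both directions. Of 21 tested genes of nitrogen uptake and assimilation 12 rose and 5 fell, against 7 and 7 with the offset. Without the offset these were 57.1% and 23.8%, beside 21.1% and 20.4% of all tested genes. ASN1, the glutamine-dependent asparagine synthetase, had 265, 251 and 251 CPM in csld5, against 82.2, 86.5 and 81.2 CPM in col-0 (1.62 ± 0.07), and GSR 1, a cytosolic glutamine synthetase (AT5G37600), rose by 0.72 ± 0.06. LBD37, a repressor of nitrate-responsive genes, had 18, 16.1 and 18.8 CPM in csld5, against 33.6, 32.7 and 34.5 CPM in col-0 (-0.93 ± 0.07). Its relatives LBD38 and LBD39 fell by 0.62 ± 0.11 and 0.64 ± 0.10, so all 3 members of that group were lower. A run of 5 neighbouring genes for small redox proteins of the thioredoxin superfamily on chromosome 4, AT4G15660 to AT4G15700, fell as well (median -1.51), at col-0 means of only 1.11 to 2.46 CPM, and 3 of the 5 were called with the offset. The stretch was named after its values were seen, and its near-identical members may share reads.

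Carbon and low-oxygen genes split by enzyme. Of 15 core hypoxia genes 3 rose and 7 fell (2 and 8 with the offset), or 20% and 46.7% beside 21.1% and 20.4% of all tested genes. SUS1, which splits sucrose, had 190, 177 and 202 CPM in csld5, against 67.9, 72.5 and 82.2 CPM in col-0 (1.35 ± 0.08), and PDC2, a pyruvate decarboxylase of fermentation, rose by 0.86 ± 0.08. FTM1, annotated as an acyl-carrier-protein desaturase, had 15.6, 11.6 and 10.9 CPM in csld5, against 39.1, 43.2 and 40.1 CPM in col-0 (-1.68 ± 0.13). Of 34 genes of abscisic acid metabolism and response 13 rose and 5 fell (8 and 5 with the offset), or 38.2% and 14.7% without the offset. COR47, a dehydrin, rose by 0.83 ± 0.09 and the phosphatase HAI2 by 0.93 ± 0.11, while CYP707A3, which breaks the hormone down, had 6.35, 9.34 and 9.68 CPM in csld5, against 23.8, 24 and 24 CPM in col-0 (-1.50 ± 0.13). Without col-0 replicate 1 or 2 the number of rises in this list was 7 or 8, and without csld5 replicate 2 the number of falls 3.

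Glucosinolate genes, the sulfur-containing defence compounds of the cabbage family, were lower in csld5 for 10 and higher for 5 of the 22 tested (10 and 1 with the offset). The lower and higher shares were 45.5% and 22.7%, beside 20.4% and 21.1% of all tested genes. MYB29, a regulator of the aliphatic branch, had 0.445, 0.488 and 0.701 CPM in csld5, against 2.04, 2.36 and 2.52 CPM in col-0 (-2.07 ± 0.28). MYB28, which acts in the same branch, fell by 0.62 ± 0.08, and SOT16, a sulfotransferase of the indole branch, rose by 0.50 ± 0.08. Of 90 MYB genes in all 10 rose and 29 fell (10 and 22 with the offset), with MYB108 up by 2.75 ± 0.34 and MYB82 down by 1.29 ± 0.11. Rises were 11.1% and falls 32.2% of the MYB genes. The number of rising MYB genes was 6 without col-0 replicate 1.

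Aquaporin, actin and protein folding genes were called higher more often than lower. Rises were 55.2% of the aquaporins, 52.4% of the actin list and 70% of the folding list, beside 21.1% of all tested genes. Falls were 0%, 9.52% and 5%, beside 20.4%. Of 29 aquaporins, the water channels, 16 rose and 0 fell (15 and 0 with the offset). PIP1B of the plasma membrane had 614, 617 and 577 CPM in csld5, against 447, 424 and 451 CPM in col-0 (0.45 ± 0.05), and the vacuolar GAMMA-TIP and TIP2;2 rose by 0.42 ± 0.05 and 0.92 ± 0.12. These changes are small in size and exceed the spread between libraries in every case named. Of 21 actins, profilins and formins 11 rose and 2 fell (8 and 1 with the offset), with ACT1 at 0.63 ± 0.06, ACT7 at 0.42 ± 0.05 and the actin-nucleating formin FH3 at 1.30 ± 0.14. Among 20 genes of the unfolded protein response, which raises folding capacity in the endoplasmic reticulum, 14 rose and 1 fell (11 and 1 with the offset). The chaperone BIP1 had 492, 544 and 572 CPM in csld5, against 346, 337 and 365 CPM in col-0 (0.62 ± 0.06), its near-identical copy BIP2, which may share its reads, stood at 0.65 ± 0.08, and the disulfide isomerase PDIL1-2 rose by 0.62 ± 0.06. One aquaporin fell without col-0 replicate 3. The single fall in the folding list was lost without csld5 replicate 2 or 3 or col-0 replicate 1 or 3.

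Among mineral nutrition genes, rises outnumbered falls, and most iron genes were not called. Rises were 35% of the iron genes and 43.8% of the phosphate genes, beside 21.1% of all tested genes. Falls were 0% and 18.8%, beside 20.4%. Of 20 iron genes 7 rose and 0 fell (7 and 2 with the offset), among them the uptake transporter IRT1 (22.5, 20.6 and 15 CPM in csld5, against 9.88, 8.33 and 9.62 CPM in col-0; 1.06 ± 0.17), the storage protein FER1 (0.46 ± 0.06) and the metal chelate transporter YSL1 (0.45 ± 0.06). Of 16 phosphate starvation genes 7 rose and 3 fell (5 and 0 with the offset). PHT1;4, a phosphate importer, had 3.06, 2.65 and 2.56 CPM in csld5, against 0.231, 0.401 and 0.617 CPM in col-0 (2.74 ± 0.33). PHO2, which lowers the amount of such importers, rose by 0.75 ± 0.07. Without csld5 replicate 2 or 3, 1 iron gene fell.

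**Figure D4:**
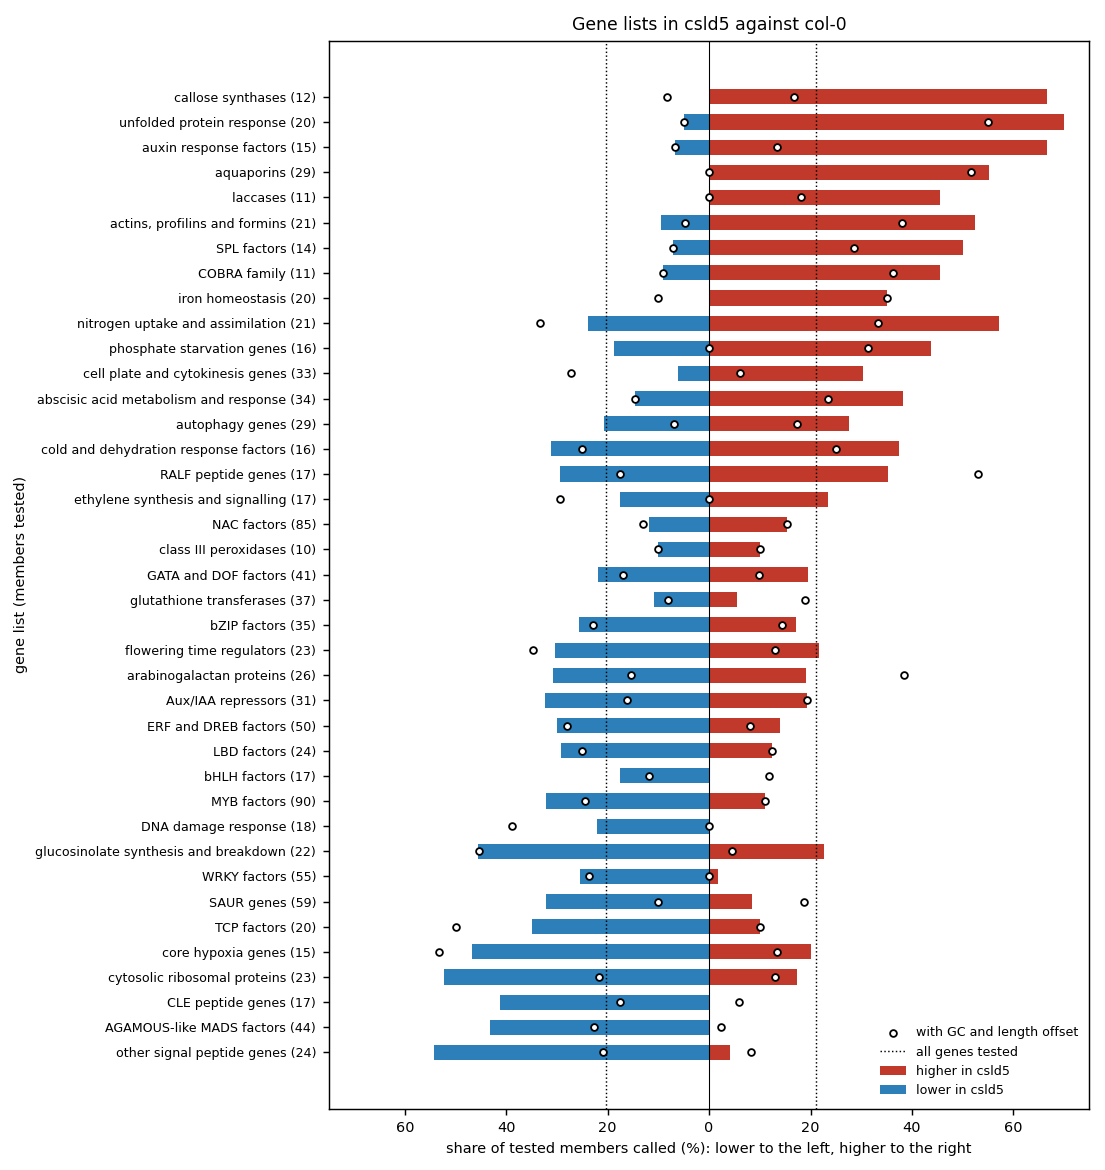
Share of tested members called higher (right) or lower (left) in csld5 than in col-0, in percent, for each gene list with at least 10 tested members. Bars give the fit without the offset, open circles that with it, and dotted lines the share over all tested genes (21.1% higher, 20.4% lower). The bar of the unfolded protein response reaches 70.0% on the higher side and that of other signal peptides 54.2% on the lower side.

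Wall and division genes other than those of cellulose, pectin and xyloglucan depended much on the offset. Of 33 genes of the cell plate and cytokinesis 10 rose and 2 fell, but 2 rose and 9 fell with it. CDC48, an ATPase at the cell plate, had 609, 641 and 696 CPM in csld5, against 454, 457 and 487 CPM in col-0 (0.48 ± 0.06, and 0.11 with the offset, no longer called). Of 12 callose synthases, which make the polymer of new cell plates and pollen walls, 8 rose and 0 fell, against 2 and 1 with the offset. GSL04 was called under all 20 settings (0.82 ± 0.13). The number of falls among the cell plate genes was 4 without csld5 replicate 1 and 1 without csld5 replicate 3. Of 11 laccases, which polymerise lignin, 5 rose and 0 fell (2 and 0 with the offset), with LAC17 at 42.4, 42.4 and 40 CPM in csld5, against 27.9, 18 and 25.3 CPM in col-0 (0.81 ± 0.13), and LAC10 at 0.77 ± 0.17. LAC10 stood at 0.47 with the offset, and its call was lost with the offset and a replicate block (0.47) or with the offset and without csld5 replicate 3 (0.45). Rises without the offset were 30.3% of cell plate genes, 66.7% of callose synthases and 45.5% of laccases, beside 21.1% of all tested genes. Falls were 6.06%, 0% and 0%, beside 20.4%.

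Surface proteins anchored to the membrane or the wall varied among themselves. Of 11 COBRA family genes, whose products guide cellulose deposition, 5 rose and 1 fell (4 and 1 with the offset). COBL10, known from pollen tubes, had 9.38, 15.3 and 12 CPM in csld5, against 2.59, 1.29 and 1.82 CPM in col-0 (2.68 ± 0.28), while COBL1 fell by 0.53 ± 0.07. Of 26 arabinogalactan protein genes 5 rose and 8 fell, against 10 and 4 with the offset. AGP11, also known from pollen, had 27.9, 38.8 and 31.1 CPM in csld5, against 9.37, 17.1 and 14.2 CPM in col-0 (1.27 ± 0.17). AGP9 rose by 0.65 ± 0.07 and AGP12 fell by 0.85 ± 0.11 (-0.37 with the offset). Without col-0 replicate 3, 5 arabinogalactan protein genes fell. COBRA genes were higher for 45.5% and lower for 9.09%, and arabinogalactan protein genes for 19.2% and 30.8%. Beside them, 21.1% of all tested genes were higher and 20.4% lower.

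Markers of other tissues moved with part of these genes. Of 15 tested pollen markers 6 rose and 0 fell, with and without the offset. The rises were 40% of these markers, beside 21.1% of all tested genes. The summed pollen list stood at 321, 561 and 503 CPM in csld5, against 217, 329 and 255 CPM in col-0, and the lowest csld5 library lay below the highest col-0 library. VGD1 and PPME1 together made up most of this sum in every csld5 and col-0 library. VGD1, a pectin methylesterase of pollen tubes, had 174, 324 and 297 CPM in csld5, against 99.1, 157 and 122 CPM in col-0 (1.07 ± 0.19), and the kinase genes ANX2 and PERK5 rose by 2.36 ± 0.29 and 1.44 ± 0.32. PPME1 had 70.1, 118 and 96 CPM in csld5, against 47, 78.8 and 61.5 CPM in col-0. Its difference was 0.60 ± 0.18, a call lost without csld5 replicate 2 (0.41) or col-0 replicate 1 (0.43). Without either of those libraries 3 pollen markers rose, and 1 fell without csld5 replicate 2. The calls of CALS5 (0.54 ± 0.18) and TIP1;3 (0.66 ± 0.24) held in 7 and 9 of the 20 settings, and CALS5 was not called with the offset (0.18). Among the pollen markers not called were AGL65 (-0.30), MYB101 (0.00), GEX1 (0.06), AGL104 (0.08), HAP2 (0.23), AGL66 (0.24) and MYB97 (0.99, with few reads). The part of pollen in the rises of COBL10 and AGP11 was not tested.

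Some vascular markers were higher. Of 9 tested, 4 rose and 0 fell, also with the offset, and the list summed to 253, 294 and 281 CPM in csld5, against 202, 186 and 199 CPM in col-0, without overlap. The 4 were the secondary wall cellulose synthases CESA4 (66.3, 74.8 and 69.4 CPM in csld5, against 47.3, 34.5 and 46.3 CPM in col-0; 0.72 ± 0.12), IRX3 (0.89 ± 0.13) and IRX1 (0.79 ± 0.10), and the procambium regulator HB-8 (0.64 ± 0.09). The xylem genes XCP1, XCP2 and VND7 and the phloem genes APL and SUC2 were not called, at 0.32, 0.03, 0.12, 0.16 and 0.19 (-0.18 for SUC2 with the offset). The part of vascular tissue in the rise of the laccases was not tested. Of 11 tapetum markers 1 rose and 1 fell (0 and 0 with the offset), and 4 rose without csld5 replicate 1 and 0 without csld5 replicate 2 or 3 or col-0 replicate 1 or 3. The fall was that of DYT1, an early tapetum regulator, and was lost without csld5 replicate 3 (-0.99) or col-0 replicate 2 (-1.02), while 2 fell without col-0 replicate 3. The tapetum list summed to 389, 567 and 520 CPM in csld5, against 490, 472 and 411 CPM in col-0. Of 6 ovule markers 0 rose and 2 fell (1 fell with the offset, and without csld5 replicate 2 or 3 or col-0 replicate 1 or 2; 1 rose without csld5 replicate 2 or col-0 replicate 3), with STK, which specifies ovules, at -0.52 ± 0.06. Ovule markers summed to 104, 85.3 and 96.9 CPM in csld5, against 107, 108 and 108 CPM in col-0. Leaf markers were 1 higher and 1 lower of 6 (2 lower without csld5 replicate 3), and the root list, of which 3 genes were tested, summed to 46.6, 50.6 and 55.3 CPM in csld5, against 40.1, 42.4 and 43.8 CPM in col-0. Shares called higher were 44.4% for vascular, 9.09% for tapetum, 0% for ovule, 16.7% for leaf and 33.3% for root markers. Shares called lower were 0%, 9.09%, 33.3%, 16.7% and 0%. All tested genes stood at 21.1% higher and 20.4% lower.

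**Figure D5:**
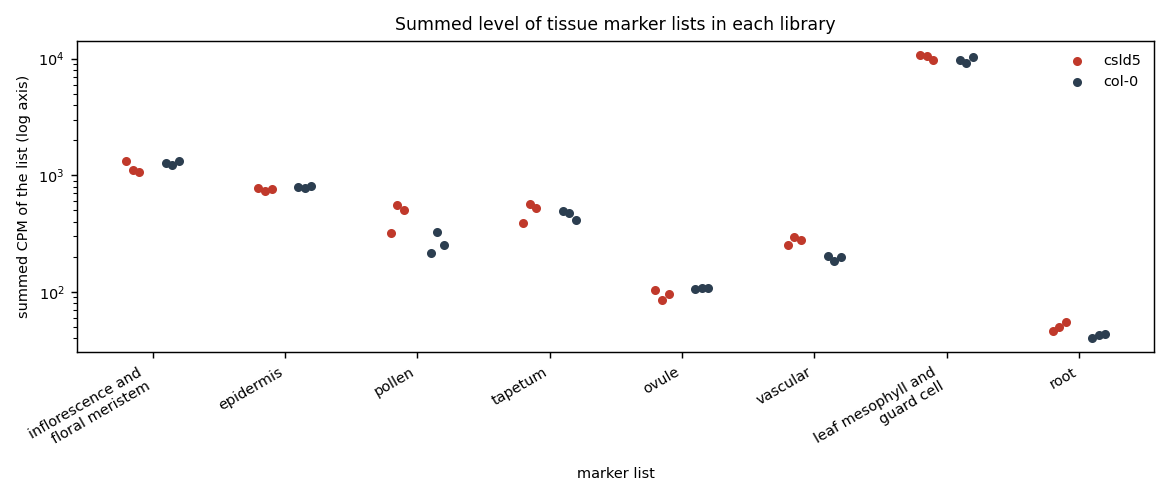
Summed CPM (y axis, log scale) of 8 tissue marker lists in each csld5 and col-0 library. Vascular markers lie at 253 to 294 CPM in csld5 and at 186 to 202 CPM in col-0, and pollen markers at 321 to 561 CPM in csld5 and at 217 to 329 CPM in col-0. VGD1 and PPME1 make up most of the pollen sum.

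Counts for developmental transcription factor families were as follows. Of 44 AGAMOUS-like MADS genes 0 rose and 19 fell, against 1 and 10 with the offset. MAF5, a floral repressor related to FLC, had 12.2, 11.2 and 9.09 CPM in csld5, against 31, 26.1 and 28.6 CPM in col-0 (-1.40 ± 0.13), its neighbour MAF4 differed by -1.40 ± 0.16, and AGL8, which acts in inflorescence and fruit, by -0.57 ± 0.06. The complemented mean of MAF5 was 10.3 CPM, as low as in csld5. Of 20 TCP genes, which set the balance of growth and division, 2 rose and 7 fell (2 and 10 with the offset). Without the offset these were 10% and 35%, beside 21.1% and 20.4% of all tested genes. TCP4 had 82.7, 68.2 and 83.2 CPM in csld5, against 39.6, 42.5 and 51.5 CPM in col-0 (0.81 ± 0.10, and 0.36 with the offset), and TCP1 fell by 1.19 ± 0.18. Of 14 SPL genes, which promote phase change and flowering, 7 rose and 1 fell (4 and 1 with the offset), SPL5 by 0.68 ± 0.08, and SPL4, which fell by 0.60 ± 0.07, in the other direction. Without csld5 replicate 3, 1 MADS gene rose. MADS genes were higher for 0% and lower for 43.2%, and SPL genes for 50% and 7.14%, beside the same 21.1% and 20.4%.

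Auxin response factors and Aux/IAA repressors act together on auxin-regulated genes. Of 15 auxin response factors 10 rose and 1 fell, but with the offset 2 rose and 1 fell. Without col-0 replicate 3, 2 fell. ARF16 had 44.9, 39.5 and 44.8 CPM in csld5, against 26.9, 26.3 and 29.2 CPM in col-0, and rose by 0.65 ± 0.07 (0.44 with the offset). Of 31 Aux/IAA repressors 6 rose and 10 fell (6 and 5 with the offset), with IAA16 at -0.54 ± 0.06 and IAA18 at -0.50 ± 0.06. Among 35 bZIP genes 6 rose and 9 fell (5 and 8 with the offset), and BZIP53, a regulator of amino acid metabolism under low energy, had 58.3, 49.3 and 49.4 CPM in csld5, against 94, 93.9 and 94.9 CPM in col-0 (-0.85 ± 0.07). Higher and lower shares were 66.7% and 6.67% for auxin response factors, 19.4% and 32.3% for Aux/IAA repressors and 17.1% and 25.7% for bZIP genes. Those of all tested genes were 21.1% and 20.4%.

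The counts of short genes, among them those of small secreted peptides, moved with the offset. Of 17 CLE genes, relatives of the stem cell peptide CLV3, 0 rose and 7 fell, against 1 and 3 with it, and the median was -0.63, against -0.27 with it. CLV3 itself was not tested: it had 0 CPM in every csld5 library, against 0.0463, 0 and 0.112 CPM in the col-0 libraries. Those col-0 values are 2, 0 and 4 reads, too few to compare the genotypes. Why so few reads were counted for CLV3 in wild-type meristems was not tested. Of 24 other signal peptide genes 1 rose and 13 fell, against 2 and 5 with the offset, with PSK3, a growth-promoting phytosulfokine precursor, at 17.4, 15.5 and 14.8 CPM in csld5, against 35, 31.3 and 27.3 CPM in col-0 (-0.97 ± 0.09, and -0.27 with the offset). STOMAGEN, which promotes stomata, fell by 1.04 ± 0.12 (-0.57 with the offset) and CLE27 by 1.18 ± 0.17 (-0.58 with the offset). RALF genes went both ways, with 6 higher and 5 lower of 17 (9 and 3 with the offset), and RALFL25 rose by 1.45 ± 0.25. Of 59 SAUR genes, short auxin-responsive genes, 5 rose and 19 fell, but 11 rose and 6 fell with the offset. The number of SAUR genes that rose was 1 to 4 when any 1 library was left out. That of RALF genes that fell was 3 without csld5 replicate 3 or col-0 replicate 1 or 2, and the single rise among other signal peptides was lost without csld5 replicate 1 or 2 or col-0 replicate 1 or 2. Falls were 41.2% of CLE, 54.2% of other signal peptide, 29.4% of RALF and 32.2% of SAUR genes, beside 20.4% of all tested genes. Rises were 0%, 4.17%, 35.3% and 8.47%, beside 21.1%. These shares are without the offset.

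Ribosomal protein, DNA damage, autophagy, NAC and glutathione transferase genes were counted as well. Of 23 cytosolic ribosomal protein genes 4 rose and 12 fell (3 and 5 with the offset), with a median of -0.21. RPS5A, a form active in dividing cells, had 656, 650 and 611 CPM in csld5, against 440, 430 and 414 CPM in col-0 (0.58 ± 0.05), and AT4G14320, a zinc-binding ribosomal protein, fell by 0.52 ± 0.08. Without csld5 replicate 2 or col-0 replicate 2 only 1 ribosomal gene rose, and without col-0 replicate 1 7 fell. Of 18 DNA damage genes 0 rose and 4 fell (0 and 7 with the offset), among them the repair enzyme PARP2 (-0.42 ± 0.09), while 2 rose without csld5 replicate 1 and 1 without col-0 replicate 2. Of 29 autophagy genes 8 rose and 6 fell (5 and 2 with the offset), of 85 NAC genes 13 rose and 10 fell (13 and 11 with the offset), and of 37 glutathione transferases 2 rose and 4 fell (7 and 3 with the offset). The falls of DNA damage genes (22.2%) and autophagy genes (20.7%) lay near the 20.4% of all tested genes. Ribosomal protein genes were higher for 17.4% and lower for 52.2%, and 27.6% of autophagy genes were higher. NAC genes (15.3% higher, 11.8% lower) and glutathione transferases (5.41% and 10.8%) lay below the shares over all tested genes, 21.1% and 20.4%. The NAC genes that rose were 8 without col-0 replicate 1, and 1 glutathione transferase rose without csld5 replicate 1 or 2 or col-0 replicate 1 or 2.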

How the data were processed

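RNA was taken from dissected inflorescence meristems and sequenced. Per the submitters' processing notes, reads were trimmed with Trimmomatic 0.39, aligned with HISAT2 2.2.1 to TAIR10 and counted per gene with featureCounts 2.0.6. The sources used here do not give their settings. The authors deposited raw counts per gene and TPM values. From the counts, genes were filtered with filterByExpr, scaled by TMM and tested with edgeR 4.0.16 (quasi-likelihood test, all 9 libraries, genotype as the only term, Benjamini-Hochberg adjustment, threshold 0.05) in R 4.3.3. Alternatives were DESeq2 1.42.0, limma 3.58.1 on log2 of the deposited TPM, other scalings and filters, left-out libraries, and an offset per library from a smooth curve of exon GC content and length (mgcv 1.9.3). The fit was tested on simulated data. Genes were named by rule: CSLD5 and stem cell genes, the 10 largest rises and falls among called, non-overlapping nuclear genes with average log2 CPM of at least 3, the 6 with the smallest p, the largest changes within 2 Mb of CSLD5, up to 3 called members of a list with the smallest p, and defining markers. The changes within 2 Mb of CSLD5 were ranked among called genes with average log2 CPM of at least 1. Genes in and beside the chromosome 1 stretch were named after their values were seen. The lists and genes were chosen with earlier results of these data known. The runs of neighbouring genes, and the fit of 6 libraries with the offset, were added after the values were seen. Promoters and gene positions come from RefSeq TAIR10.1, in which 25637 of the 25760 genes matched. Intervals of values cover the spread between libraries only.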

Additional observations from a re-analysis of the deposited data

How the results depend on the processing

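The 9417 calls became 7427 with the GC and length offset and 5909 (2964 higher, 2945 lower) with the offset and without csld5 replicate 3, and 3185 genes were higher with 6 libraries and the offset, a fit added after the data were seen. Genes called with a difference of at least 1 numbered 1536, against 789 by limma on TPM with a pseudocount of 1 and 790 by limma on TPM without a filter. Leaving out 1 library gave 7403 to 9451 calls, 3796 to 4933 higher and 3607 to 4518 lower, and 1329 to 1626 with a difference of at least 1. AT3G03265 reversed to 0.34 in the 3 fits on TPM. AT1G65070, not called, reversed to -0.04 with the offset, also with the replicate block or 6 libraries, and to -0.02 with the offset and without csld5 replicate 3; the cause was not tested. AMT1;2 and the uncalled SUC2 reversed to -0.12 and -0.18 with the offset, to -0.11 and -0.18 with the replicate block added, to -0.13 and -0.16 without csld5 replicate 3, and to -0.13 and -0.19 with 6 libraries. XCP2, also uncalled, reversed to -0.05 with library totals, to -0.02 with the offset, with or without the replicate block, and to -0.03 with 6 libraries and the offset, and ran from -0.07 to 0.11 when 1 library was left out, while VND7 ran from -0.20 to 0.43. The deviations of libraries with the same number had correlations of 0.0763, 0.196 and -0.036, against -0.243 to 0.159 for unlike numbers. Taken from means of only 3 libraries, these values cannot tell whether the numbers pair the libraries. A replicate block gave 9540 calls, or 7226 with the offset. Scaling by library totals gave 3524 higher and 6394 lower genes and moved the median of all genes to -0.10, from -0.02 with TMM.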
